A study of Mus musculus with 32 samples.

Results

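The ATP synthase subunits described here are the products of 10 nuclear genes, Atp5a1, Atp5b, Atp5c1, Atp5d, Atp5g1, Atp5g3, Atp5j, Atp5j2, Atp5o and Atp5pb. They were chosen by name, with a rule that uses no measured value, but with earlier results of these data known. In the table of sorted LECs these symbols were carried by 11 of 22337 genes, because the symbol Atp5o stands beside 2 identifiers. The table of the tissues was joined to it by identifier and gives most members other symbols, such as Atp5f1a for Atp5a1. The second Atp5o identifier is a locus that overlaps the first on the same strand. It was above 0 in 2 of 32 samples and never exceeded 0.34 FPKM, so it was not tested, and Atp5o below means the other identifier. All of the remaining 10 genes passed the filter on low values in every comparison.

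ATP synthase, complex V of oxidative phosphorylation, sits in the inner mitochondrial membrane and uses the proton gradient built by the respiratory chain to make ATP from ADP and phosphate. Protons turn a ring of c subunits in the membrane, the ring turns a central stalk, and the stalk drives the catalytic head that projects into the matrix, while a peripheral stalk keeps the head from turning along. Neurons, which spend much of their ATP on ion pumping, draw heavily on this enzyme.

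The study asked how near-infrared light given to 5xFAD mice changes the hippocampus, the meninges and the meningeal lymphatic endothelial cells (LECs), the cells that line the lymph vessels of the meninges. 5xFAD mice carry transgenes that include mutant human APP, driven by Thy1 regulatory sequence, which is active mainly in neurons, on a C57BL/6J background, and they are a model of amyloid deposition. 3 kinds of male mice aged 6 months were compared: WT littermates, untreated 5xFAD mice that were anesthetized under room light, and light-treated 5xFAD mice, named 5xFAD+L below. Smart-seq2 RNA-seq gave 32 samples, each from 1 mouse: 4 WT, 4 5xFAD and 4 5xFAD+L hippocampi, 4 WT, 3 5xFAD and 3 5xFAD+L meninges, and 4 WT, 3 5xFAD and 3 5xFAD+L samples of LECs sorted as DAPI-CD45-CD31+PDPN+ cells.

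Total counts per sample ran from 13952825 to 23856476 in the hippocampus, from 6601143 to 14708202 in the meninges and from 14231415 to 24207326 in the sorted LECs. Genes above 0 numbered 16371 to 18264 in a hippocampus, 17427 to 19769 in meninges and 5998 to 9020 in a sorted LEC sample. Thy1 checked the transgene label in the hippocampus: it stood at 170.3 to 189 FPKM in WT hippocampi and at 407 to 622 FPKM in the 5xFAD and 5xFAD+L hippocampi together, with no overlap. It did not separate the groups of the meninges, where it was at 10.6 to 23.9 FPKM, or of the LECs, where it was at 0 to 13.3 FPKM, so the genotype labels of those samples were not checked. Summed neuronal markers were 1719 to 2204 FPKM in hippocampi and 81.9 to 468 FPKM in meninges. Summed choroid plexus markers, mostly Ttr, were 15684 to 49287 FPKM in meninges and 36.3 to 3189 FPKM in hippocampi. In the WT LEC samples of replicates 2 and 4 the lymphatic marker Ccl21a was at 3.54 and 0 FPKM, Lyve1 and Pdpn were at 0 in both, and the endothelial marker Pecam1 was at 189 and 247 FPKM. Ccl21a was at 998 to 9356 FPKM in the other 8 LEC samples. Mmrn1 was low in WT replicates 2 and 4 too, at 0.06 and 19.7 FPKM, against 46.6 to 146 FPKM in the other 8. Flt4 and Prox1 did not set them apart, at 34.4 and 30.3 FPKM and at 0 and 5.71 FPKM. In WT replicate 1 these were at 15.1 and 0 FPKM, and Pdpn was also at 0 in 5xFAD replicates 2 and 4. The LEC comparisons with WT are given below with and without WT replicates 2 and 4.

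The members span the parts of the enzyme, and their places are those of GENCODE vM21 on GRCm38. Of the catalytic head, Atp5a1 (ENSMUSG00000025428) encodes the alpha subunit and Atp5b (ENSMUSG00000025393, chr10:128083273-128090391, plus strand) the beta subunit that carries the catalytic sites. Of the central stalk, Atp5c1 (ENSMUSG00000025781, chr2:10056016-10080510, minus strand) encodes gamma and Atp5d (ENSMUSG00000003072, chr10:80138632-80145818, plus strand) encodes delta. Atp5g1 (ENSMUSG00000006057, chr11:96068852-96075670, minus strand) and Atp5g3 (ENSMUSG00000018770, chr2:73908447-73911326, minus strand) each encode subunit c of the rotor ring, as does Atp5g2, and the mature protein of these genes is the same. The peripheral stalk is given by Atp5pb (ENSMUSG00000000563, chr3:105942698-105960099, minus strand), Atp5j (ENSMUSG00000022890, chr16:84827866-84835625, minus strand) and Atp5o (ENSMUSG00000022956, chr16:91925214-91931687, minus strand), which encode subunit b, coupling factor 6 and OSCP. Atp5j2 (ENSMUSG00000038690, chr5:145183698-145192062, minus strand) encodes subunit f, a small protein of the membrane part. Several of these genes have close copies elsewhere in the genome, and how the counting shared reads between copies was not tested.

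Levels are given as FPKM, fragments per kilobase of transcript scaled to the mapped fragments of the sample, which can be set side by side between genes of different length. In the hippocampus every member ranked among the strongly expressed genes: each member's median FPKM lay above that of 97.5% to 99.7% of the 12981 tested genes. Atp5b was highest in all 3 WT, 5xFAD and 5xFAD+L groups, at 1089.6 ± 40.0 FPKM in WT (SD, n = 4), followed by Atp5g1 at 512 ± 50 FPKM. Atp5o, Atp5a1, Atp5c1, Atp5d and Atp5j followed, in that order of level, at 392.1 to 431 FPKM in WT, neighbours differing by less than their SDs of 18.9 to 29.2 FPKM, and Atp5j2, Atp5pb and Atp5g3 were lowest at 262 to 312 FPKM. The spread between mice was small, with a coefficient of variation (CV) within groups that averaged from 4.07% for Atp5pb to 17.2% for Atp5j2.

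In the meninges the members' medians lay above those of 97.2% to 99.4% of the 14318 tested genes, and the order was another. Atp5g1, for the rotor ring, led in WT at 977 ± 171 FPKM (SD, n = 4) beside Atp5b at 833 ± 156 FPKM, values whose ranges overlap. Atp5j2, Atp5d and Atp5j stood at 559 to 609.7 FPKM, and Atp5a1 and Atp5pb were lowest at 287 ± 48.0 and 247 ± 34.6 FPKM. CVs within groups averaged from 10.1% for Atp5c1 to 29.7% for Atp5d.

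In the sorted LECs the members' medians lay above those of 83.7% to 95.7% of the 8188 tested genes, and the spread was wide, with average CVs within groups from 18.4% for Atp5j to 54.2% for Atp5d. The medians over the 10 samples placed Atp5j, Atp5b, Atp5g1 and Atp5o together at 251 to 269 FPKM and Atp5pb and Atp5g3 last at 91.7 and 63.9 FPKM. The LEC table was made apart from the tissue table, so levels in it were not tested against the tissues.

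**Figure D1:**
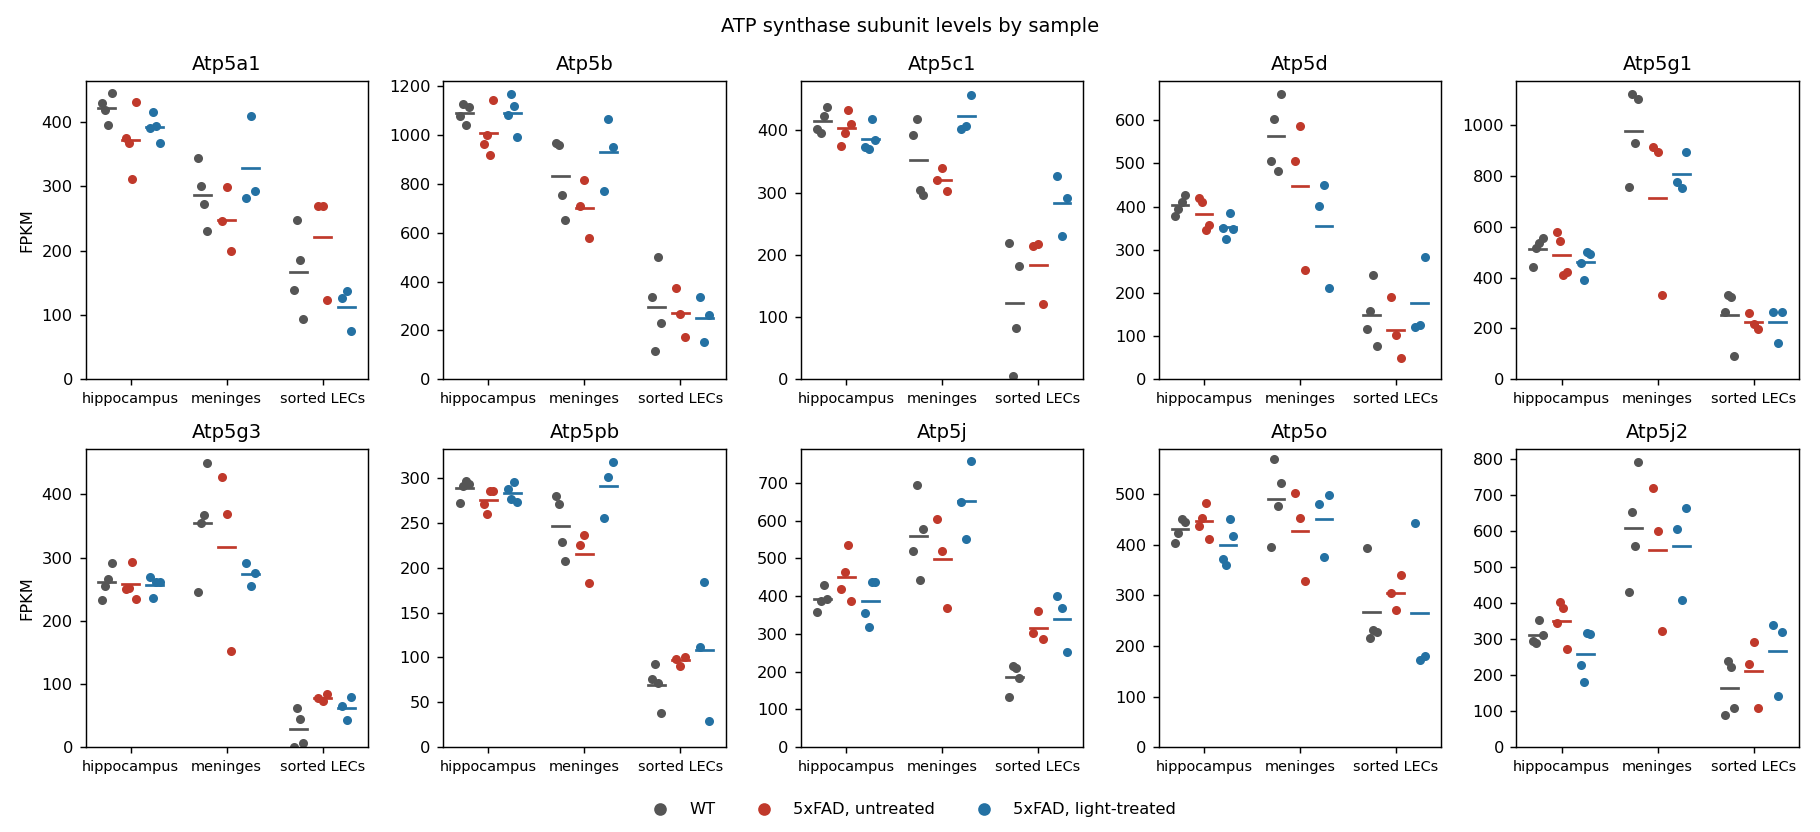
Level of each member in every sample, in FPKM on linear axes that start at 0, with hippocampus, meninges and sorted LECs along the x axis; each point is 1 mouse and each bar is the group mean. WT meninges lie below WT hippocampus for Atp5a1 and Atp5b and above it for Atp5g1 and Atp5j2, and the LEC points are spread widest, with Atp5g3 at 0 in 1 WT sample.

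The head subunits kept a steady ratio in the tissues. Atp5b over Atp5a1 ran from 2.50 to 2.95 over the 12 hippocampi and from 2.60 to 3.24 over the 10 meninges, but from 0.474 to 3.53 over the 10 LEC samples, where the WT sample of replicate 2 was lowest. Among the 3 genes for subunit c, Atp5g1 supplied 40.7% to 53.0% of the summed FPKM in the hippocampi, 44.8% to 59.6% in the meninges and 51.0% to 82.7% in the LECs. The lowest meningeal share belonged to the 5xFAD sample of replicate 4.

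The members did not share a direction between the WT tissues. This comparison asks how brain tissue and its coverings differ in the enzyme, and the tests below are edgeR quasi-likelihood tests with Benjamini-Hochberg adjustment over all tested genes, a gene being called at an adjusted p below 0.05. Of 10 members, 3 were called higher in WT meninges than in WT hippocampus and 4 were called lower, while 73% of all 15132 genes tested in both tissues were called, 39.9% higher and 33.2% lower. The members' share called, 7 of 10, is thus near the background. Their median log2 fold change was 0.24, beside 0.12 for all tested genes. In bulk tissue, fewer cells of a type and less RNA per cell cannot be told apart.

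The head was lower in the meninges. Atp5a1 stood at 429, 418, 396 and 445 FPKM in the WT hippocampi of replicates 1 to 4 and at 345, 301, 272 and 230.5 FPKM in the WT meninges. Atp5b stood at 1076, 1129, 1039 and 1114 FPKM against 968, 959, 755 and 651 FPKM. In neither gene did the tissues overlap. The log2 fold change was -0.63 ± 0.15 (SE, adjusted p = 0.000745) for Atp5a1 and -0.46 ± 0.15 (SE, adjusted p = 0.00729) for Atp5b.

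The rotor ring gene Atp5g1 and the membrane subunit gene Atp5j2 were higher in the meninges. Atp5g1 stood at 441, 515, 535 and 556 FPKM in the WT hippocampi and at 757, 1121, 928 and 1103 FPKM in the WT meninges. Atp5j2 stood at 294, 289.5, 354 and 312 FPKM against 432, 653, 559.8 and 793 FPKM. Every WT meninges sample lay above every WT hippocampus in both. Atp5g1 rose by 0.81 ± 0.22 (SE, adjusted p = 0.00285) and Atp5j2 by 0.89 ± 0.25 (SE, adjusted p = 0.00288) on the log2 scale, or 1.76-fold and 1.85-fold. The other rotor gene, Atp5g3, did not pass, at 0.36 ± 0.22 (SE, adjusted p = 0.143).

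The stalks held members of both directions. Peripheral stalk gene Atp5j was called higher, at 0.44 ± 0.18 (SE, adjusted p = 0.0362), its partner Atp5pb was called lower, at -0.33 ± 0.13 (SE, adjusted p = 0.0237), and Atp5o, which links the stalk to the head, was not called, at 0.12 ± 0.15 (SE, adjusted p = 0.499). The central stalk gene Atp5c1 was called lower, at -0.31 ± 0.13 (SE, adjusted p = 0.0373), and Atp5d was not called, at 0.40 ± 0.22 (SE, adjusted p = 0.0985). WT meninges of Atp5pb, at 280.3, 271, 229 and 207 FPKM, reached into the WT hippocampi at 272, 291, 297 and 293 FPKM, and Atp5c1 overlapped likewise. The calls of Atp5j, Atp5pb and Atp5c1 were lost in several alternatives. With WT meninges replicate 4 left out only 4 members were called, and with 5xFAD meninges replicate 4 left out, which enters only the shared estimate of the spread, 9 were.

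**Figure D2:**
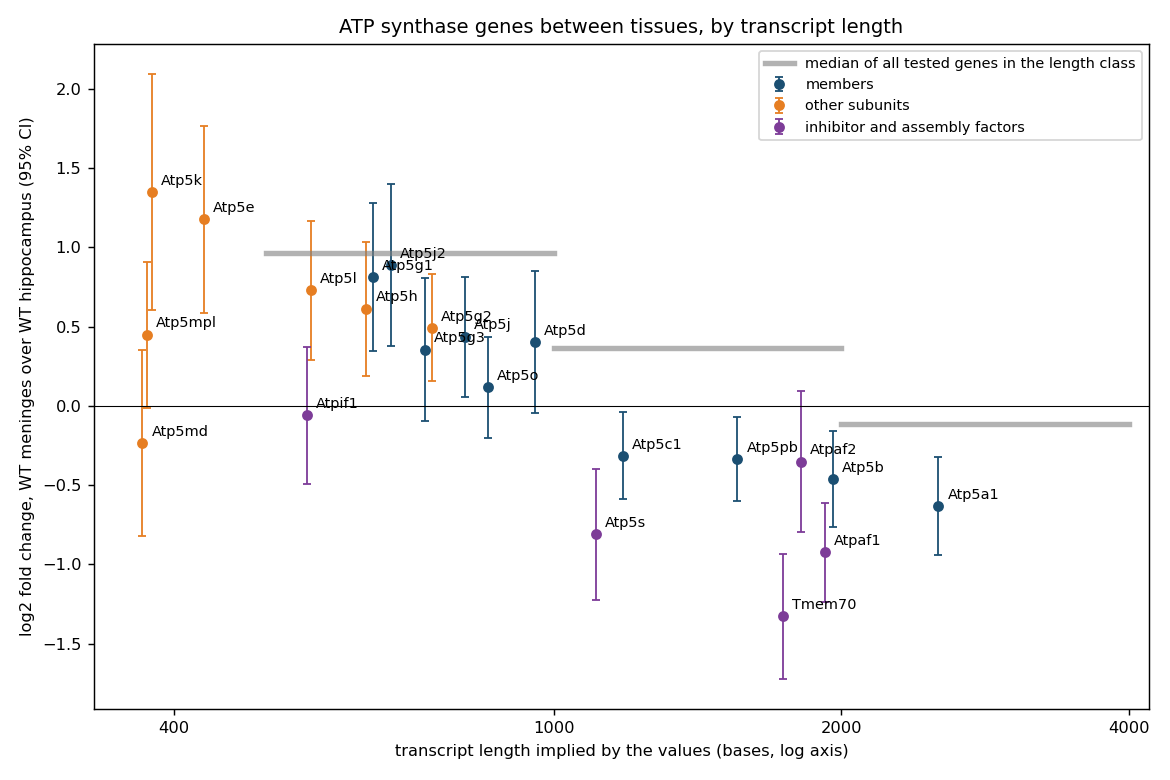
Log2 fold change of WT meninges over WT hippocampus (y axis, with 95% confidence intervals) against transcript length in bases on a log axis for the members, the other subunits and the inhibitor and assembly factors; grey bars are the median of all tested genes in a length class. All 10 members lie below the grey bar of their class, and the members that were called lower have longer transcripts than those called higher.

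Transcript length moved with this comparison across all genes. From the ratio of counts to FPKM, the implied transcript lengths of the members run from 647 bases for Atp5g1 to 2528 bases for Atp5a1. The 4 members called lower have implied lengths of 1182 to 2528 bases and the 3 called higher have 647 to 806 bases. Over all tested genes, the median log2 fold change of meninges over hippocampus was 0.97 for lengths of 500 to 1000 bases, 0.37 for 1000 to 2000 bases and -0.11 for 2000 to 4000 bases. Each of the 10 members lay below the median of its own length class, by 0.08 to 0.85 and with a median difference of -0.59. The part of transcript length in the members' differences was not tested.

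Other genes of the enzyme filled in this picture. Of the 7 other nuclear subunits tested, 5 were called higher in WT meninges and none lower: Atp5k at 1.35, Atp5e at 1.18, Atp5l at 0.73, Atp5h at 0.61 and Atp5g2 at 0.49 on the log2 scale. The small membrane subunits Atp5md and Atp5mpl were not called, and Atp5md was lower, at -0.23. Of the 5 inhibitor and assembly genes, 3 were called lower: Tmem70 and Atpaf1, which help to assemble the enzyme, at -1.33 and -0.92, and Atp5s at -0.81. The inhibitor Atpif1 was not called, at -0.06. The 7 genes listed as carriers and porins pass nucleotides and phosphate across the mitochondrial membranes, except Ckmt1, which encodes a mitochondrial creatine kinase. Of these 7, 4 were called lower and none higher, with a median of -0.50. Of 36 complex I genes 12 were called higher and 5 lower, of 13 genes of complexes II and III 6 and 5, and of 11 complex IV genes 1 and 0. Cytosolic ribosomal protein genes, most of them short, were called higher in 71 of 75 cases, with a median of 1.07, and of 17 vacuolar ATPase genes, whose pump acidifies organelles and synaptic vesicles, 4 were called higher and 12 lower. The summed neuronal and choroid plexus markers given above differ between the tissues too, and their part was not tested. The mitochondrially encoded subunits were not analysed here.

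Promoters of members that differed between the tissues in either direction are printed to show what stands before their starts. RefSeq (GRCm38.p6) promoters were used for 9 of 10 members, and no promoter of Atp5a1 was used. The 120 bases before the start are written 5′ to 3′ on the gene's strand. Capitals mark 2 short motifs, the CCAAT box, spelled CCAAT or, on the other strand, ATTGG, and the GC box. The GC box is spelled GGGCGG or, on the other strand, CCGCCC. Atp5b and Atp5pb were called lower in the meninges, and Atp5g1 and Atp5j2 higher.
Atp5b, chr10:128083187-128083306, plus strand: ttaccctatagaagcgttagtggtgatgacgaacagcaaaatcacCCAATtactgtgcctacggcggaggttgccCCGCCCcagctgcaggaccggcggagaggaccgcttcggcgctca
Atp5pb, chr3:105959264-105959383, minus strand: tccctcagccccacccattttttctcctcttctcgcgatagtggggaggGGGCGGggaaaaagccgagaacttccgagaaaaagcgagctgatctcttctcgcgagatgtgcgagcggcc
Atp5g1, chr11:96075632-96075751, minus strand: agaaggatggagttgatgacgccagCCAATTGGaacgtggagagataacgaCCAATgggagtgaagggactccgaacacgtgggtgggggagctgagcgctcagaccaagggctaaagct
Atp5j2, chr5:145191542-145191661, minus strand: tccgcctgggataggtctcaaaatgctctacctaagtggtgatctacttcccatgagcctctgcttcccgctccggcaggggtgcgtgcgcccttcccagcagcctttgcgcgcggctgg
In these windows, Atp5b held a CCAAT motif and a GC box, Atp5pb a GC box, Atp5g1 CCAAT motifs of which the first overlaps its own reverse complement, and Atp5j2 neither. Atp5j and Atp5c1, called higher and lower, are not printed. In the 120 bases before its start Atp5j held a GC box and Atp5c1 neither motif, so the motifs did not go with the direction.

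Over the whole RefSeq windows, which run from 250 bases before to 50 bases after a start, CCAAT was found for 5 of 9 members against 37.4% of all 32851 promoters, and the GC box for 3 of 9 against 35.7%. AAGATGGC, on the other strand GCCATCTT, a sequence bound by YY1, was found for 3 of 9 members, Atp5j, Atp5j2 and Atp5pb, against 2.75% of promoters. The ETS core, CCGGAAG or on the other strand CTTCCGG, was found for Atp5j alone against 8.86% of promoters, and the NRF1 core, GCATGCGC or on the other strand GCGCATGC, for 0 of 9 against 2.71%. Of the 6 other subunits with a promoter, 5 held the ETS core and 3 the NRF1 core. No match in a member overlapped a match of another motif. A member with more than 1 promoter entry was counted when any entry held the motif, and a match is a description of letters, not a bound site.

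No subunit passed the test for light in the hippocampus. None of the 10 members was called between 5xFAD+L and 5xFAD hippocampi, where edgeR called 0.455% of 12981 genes. Atp5j2 differed most: it stood at 345, 403, 387 and 273 FPKM in the 5xFAD mice and at 229.7, 181, 316 and 315 FPKM in the 5xFAD+L mice, so that 2 light-treated samples lay below every untreated sample and 2 within their range. Its log2 fold change was -0.43 ± 0.18 (SE), with a 95% confidence interval from -0.82 to -0.03 and an adjusted p of 0.236. The remaining 9 lay between -0.22 for Atp5j and 0.11 for Atp5b, and 3 of the 10 were higher, Atp5b, Atp5a1 and Atp5pb, with a median of -0.07 over the members and -0.02 over all tested genes. In no member did every light-treated sample lie above every untreated sample, which 3.66% of tested genes did, or below, which 3.98% did. Summed choroid plexus markers were 205 to 3189 FPKM in the 5xFAD hippocampi and 63.0 to 244 FPKM in the 5xFAD+L hippocampi, and their part in these values was not tested. For Atp5b, the most abundant member, the 95% confidence interval ran from -0.07 to 0.30.

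Untreated 5xFAD hippocampi held 0 members called against WT, where edgeR called 8.54% of tested genes. The largest differences were Atp5j at 0.21 ± 0.14 (SE, adjusted p = 0.377), Atp5j2 at 0.18 ± 0.18 (SE, adjusted p = 0.588) and Atp5a1 at -0.18 ± 0.10 (SE, adjusted p = 0.29). Atp5a1 stood at 376, 367, 312 and 431 FPKM in the 5xFAD hippocampi, 3 of which lay below all 4 WT samples. Summed leukocyte and macrophage markers were 136 to 156 FPKM in WT and 433 to 853 FPKM in the 5xFAD hippocampi, and their part in the members' values was not tested. Between 5xFAD+L and WT hippocampi 0 members were called, beside 3.59% of tested genes. In that comparison 9 of 10 members were lower, with a median of -0.10, from -0.25 for Atp5j2 and -0.18 ± 0.10 for Atp5d (SE, adjusted p = 0.401) to 0.01 for Atp5b. The light and genotype comparisons share the untreated 5xFAD samples, so a high value in these samples raises the genotype difference and lowers the light difference.

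**Figure D3:**
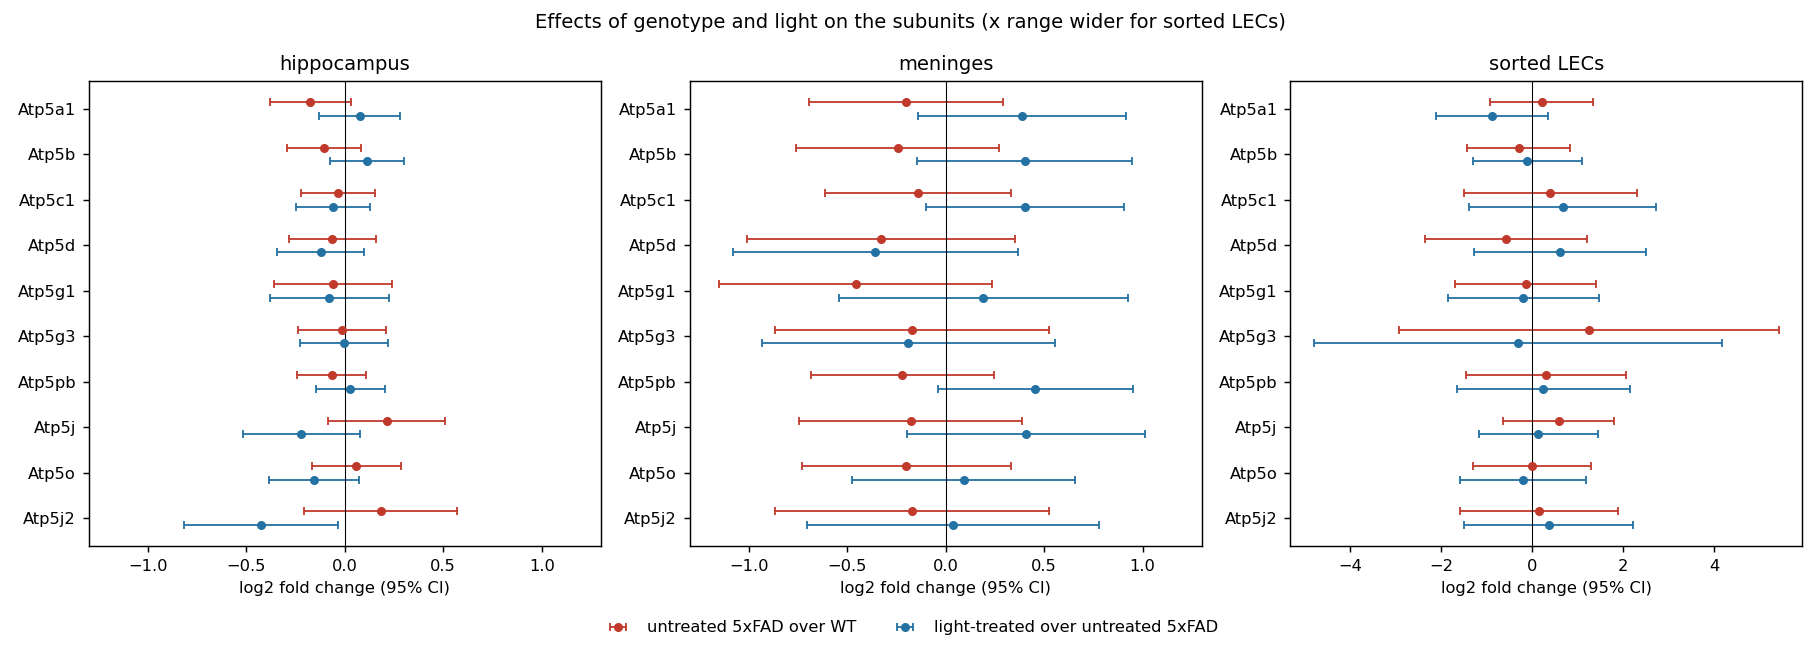
Log2 fold change of each member with its 95% confidence interval, for untreated 5xFAD over WT and for light-treated over untreated 5xFAD, in hippocampus, meninges and sorted LECs. The intervals are narrowest in hippocampus, where the light values run from -0.43 to 0.11, and widest in sorted LECs, whose panel has a wider x range.

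Other genes of oxidative phosphorylation, compared in the same hippocampi, were not called either. The 7 other subunits of the enzyme were all lower after light, with a median of -0.28 and Atp5k at -0.49, as were 11 of 11 complex IV genes, with a median of -0.29, 30 of 36 complex I genes, with -0.18, and 73 of 75 cytosolic ribosomal protein genes, with -0.26. Inhibitor and assembly genes were higher in 4 of 5 cases, carriers and porins in 4 of 7 and vacuolar ATPase genes in 8 of 17, with medians of 0.02, 0.00 and -0.02, and 12 of 13 genes of complexes II and III were lower, with -0.11. Between 5xFAD and WT the 7 other subunits were all higher, with a median of 0.18, and none was called. In the ribosomal list 75 of 75 genes were higher and 4 were called, and of the 17 vacuolar ATPase genes Atp6v0e was called, higher by 0.70. Short transcripts in general moved the same ways: after light, 15.8% of the 866 tested genes of 500 to 1000 bases were higher, with a median of -0.22, and 62.6% of those over 4000 bases were, with 0.07. Set against the median of their own length class, 8 of 10 members were higher after light and 9 of 10 were lower in 5xFAD than in WT. The part of length in these values was not tested.

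**Figure D4:**
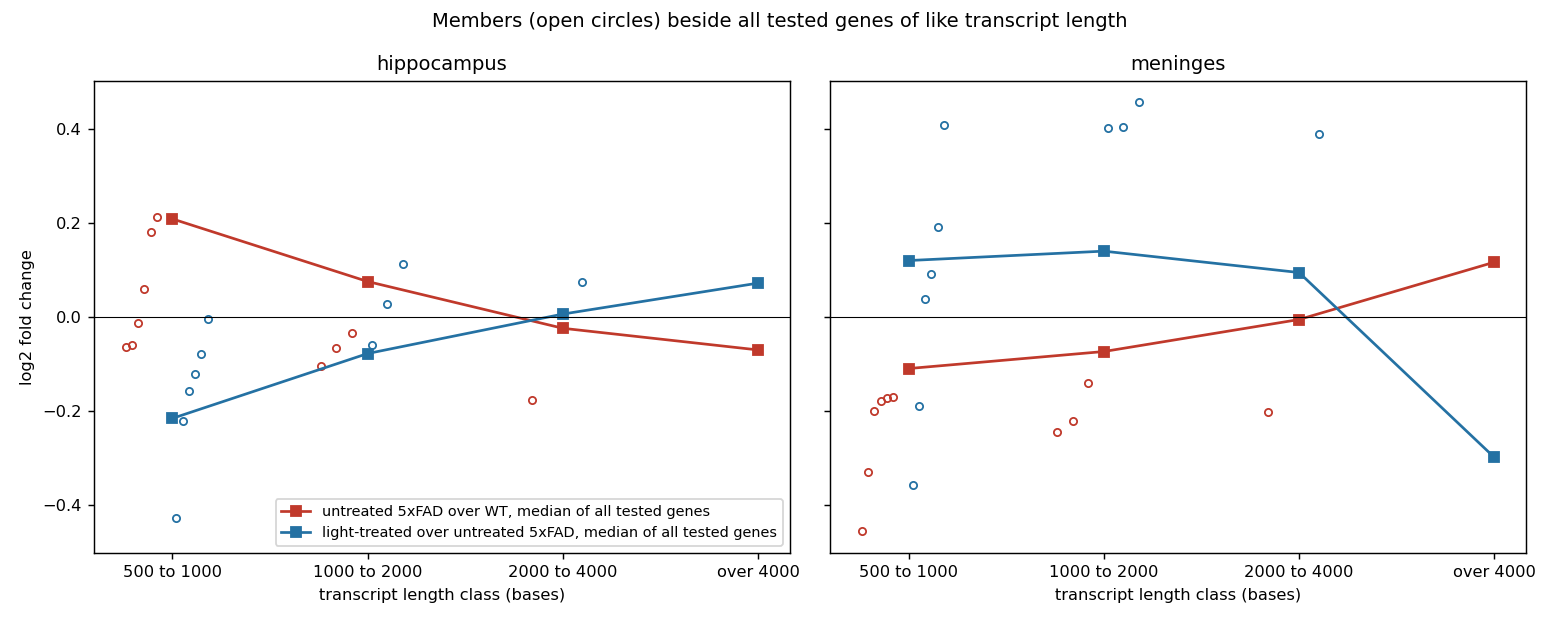
Log2 fold change (y axis) of the members, as open circles, and the median of all tested genes, as joined squares, by transcript length class in bases, for genotype and light in hippocampus and meninges. In hippocampus the median of all genes falls with length for genotype, from 0.21 to -0.07, and climbs for light, from -0.22 to 0.07, with 9 of 10 members below the genotype line and 8 of 10 above the light line of their class.

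In the meninges most members had a higher value after light, and none was called. edgeR called 2 of 14318 genes between 5xFAD+L and 5xFAD meninges, 0.014%, and DESeq2 called 79, and neither called a member. In all, 8 of 10 members were higher, with a median log2 fold change of 0.29 beside 0.04 over all tested genes. Against the median of their own length class, which was 0.09 to 0.14, 6 members lay above and 4 below, with a median difference of 0.17, and the part of length was not tested. The highest values were Atp5pb at 0.46 ± 0.23 (SE, adjusted p = 0.422), Atp5j at 0.41 ± 0.28, Atp5c1 at 0.40 ± 0.23, Atp5b at 0.40 ± 0.25 and Atp5a1 at 0.39 ± 0.24, each with its SE. Atp5g1, Atp5o and Atp5j2 were at 0.19, 0.09 and 0.04, and Atp5g3 and Atp5d were at -0.19 and -0.36.

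Atp5pb stood at 226, 237 and 183 FPKM in the untreated meninges of replicates 1, 2 and 4 and at 255, 302 and 318 FPKM in the light-treated meninges. Atp5c1, the rotating shaft of the central stalk, stood at 321, 339 and 302.5 FPKM against 402, 408 and 457 FPKM. In these 2 members every light-treated sample lay above every untreated sample, an ordering that 10.1% of tested genes showed, and in 0 members did every light-treated sample lie below, which 10.7% did.

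A single untreated sample carried much of the difference. The 5xFAD meninges of replicate 4 had 3020 FPKM summed over the members, against 4816 to 5946 FPKM in the other 9 meninges, and was the lowest of the 10 meninges in 8 members. Atp5g1 stood at 912, 895 and 332 FPKM in the 5xFAD meninges, Atp5g3 at 428, 369 and 152 FPKM and Atp5j2 at 721, 601 and 323 FPKM. The sample's total count of 9383031 lay within the range of the others, its summed neuronal markers, 81.9 FPKM, were the lowest and its summed endothelial markers, 224 FPKM, the highest of the meninges. Its summed pineal markers were 74.6 FPKM, against 244 to 705 FPKM in the other 9 meninges, of which light-treated replicates 2 and 4 were highest at 628 and 705 FPKM. The part of these in its values was not tested. Without it, Atp5g1, Atp5j2 and Atp5o after light were at -0.15, -0.23 and -0.06, Atp5pb, Atp5c1, Atp5b, Atp5a1 and Atp5j stayed between 0.24 and 0.37, and the members' median was 0.09 beside 0.04 over all genes.

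**Figure D5:**
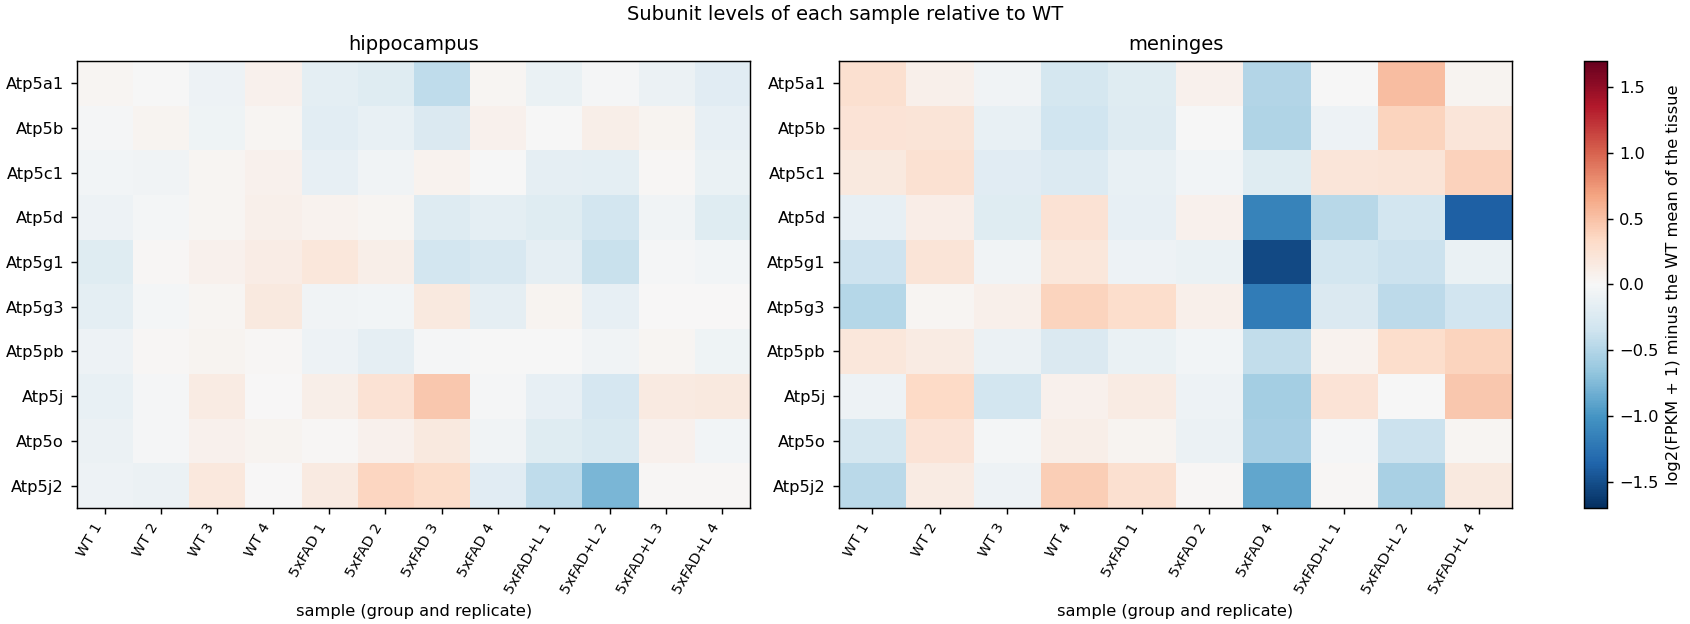
Difference of log2(FPKM + 1) from the WT mean of the tissue, as colour from blue (lower) to red (higher), for each member (y axis) in each hippocampus and meninges sample (x axis). The meninges column 5xFAD 4 is blue for all members, and 5xFAD+L 4 is blue for Atp5d and red for Atp5c1, Atp5pb and Atp5j.

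Untreated 5xFAD meninges were lower than WT in all 10 members, and none was called. edgeR called 0% of 14318 genes in this comparison, with 574 at an unadjusted p below 0.05, and DESeq2 called 0 as well. The values ran from -0.46 ± 0.32 (SE, adjusted p = 0.987) for Atp5g1 to -0.14 ± 0.22 (SE, adjusted p = 0.988) for Atp5c1, with a median of -0.20 beside -0.00 over all genes. Without 5xFAD replicate 4 the median was -0.06, and Atp5g3 and Atp5j2 were at 0.16 and 0.10. No member had every 5xFAD sample below every WT sample, which 2.65% of tested genes had, or above, which 2.19% had.

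Light-treated 5xFAD meninges held 0 members called against WT, beside 0.014% of genes, with 5 members higher and 5 lower and a median of 0.03. Atp5d differed most. This central stalk gene stood at 505, 602, 482 and 660.2 FPKM in WT meninges and at 402, 449.5 and 212 FPKM in 5xFAD+L meninges. Every light-treated sample lay below every WT sample, which 5.34% of tested genes showed, and the log2 fold change was -0.68 ± 0.32 (SE, adjusted p = 0.305). Without the lowest light-treated sample, replicate 4, it was -0.46.

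The difference between the tissues in the response to light was tested itself. edgeR called 0 members for the light effect in meninges minus that in hippocampus, beside 1.05% of 15132 genes. In 8 of 10 members this difference was above 0, with a median of 0.28 beside 0.06 over all genes, and the highest were Atp5j at 0.61 ± 0.28 (SE, adjusted p = 0.229), Atp5j2 at 0.45 ± 0.37 (SE, adjusted p = 0.518), Atp5c1 at 0.44 ± 0.20 (SE, adjusted p = 0.232) and Atp5pb at 0.40 ± 0.19 (SE, adjusted p = 0.252). Against the median of their own length class 6 members lay above and 4 below, with a median difference of 0.06. For the genotype effect in meninges minus that in hippocampus 0 members were called, beside 1.74% of genes. All 10 members were below 0, from -0.41 for Atp5g1 to -0.04 for Atp5a1, with a median of -0.22 beside -0.11 over all genes. Against their own length class the side turned: all 10 lay above its median, by 0.002 to 0.24, with a median difference of 0.07. Both differences contain the untreated 5xFAD samples, including meninges replicate 4.

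The meningeal lists of related genes lay on the same sides. After light, 29 of 36 complex I genes were higher with a median of 0.18, 7 of 7 carriers and porins with 0.45, 5 of 5 inhibitor and assembly genes with 0.44, 15 of 17 vacuolar ATPase genes with 0.32 and 6 of 7 other ATP synthase subunits with 0.16, whereas the ribosomal list was even, at 37 of 75 and a median of -0.00. Between untreated 5xFAD and WT, 34 of 36 complex I genes, 13 of 13 of complexes II and III, 11 of 11 of complex IV and 7 of 7 other subunits were lower. None of these genes was called in either comparison, and all of these values rest on the same 10 samples.

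Sorted LECs gave wide intervals. The biological CV of the fit, the spread between samples as a share of the level that edgeR estimates over all genes, was 1.89 in the LECs, against 0.198 in the hippocampus and 0.350 in the meninges. No member was called between 5xFAD+L and 5xFAD, where edgeR called 0% of 8188 genes, with 328 at an unadjusted p below 0.05, and DESeq2 called 357. None was called between 5xFAD and WT, with 0% called by edgeR, 312 at an unadjusted p below 0.05 and 185 called by DESeq2. None was called between 5xFAD+L and WT, with 0.0122% of genes called by edgeR, 550 at an unadjusted p below 0.05 and 464 called by DESeq2.

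Atp5c1 differed in order among the LEC groups. It stood at 220, 5.09, 82.9 and 182 FPKM in WT, at 214, 218 and 121 FPKM in 5xFAD and at 327, 231 and 292 FPKM in 5xFAD+L. All light-treated samples lay above all untreated ones, which 3.55% of tested genes showed, and above all WT ones, which 3.64% did. The log2 fold change after light was 0.67 with a 95% confidence interval from -1.39 to 2.73, and against WT it was 1.07 with an interval from -0.84 to 2.98.

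Atp5j, coupling factor 6, stood at 134, 215, 209 and 183 FPKM in WT, at 303, 360.3 and 286 FPKM in 5xFAD and at 399.8, 368 and 252 FPKM in 5xFAD+L. Atp5g3 stood at 0, 62.6, 45.2 and 7.37 FPKM in WT, at 77.8, 73.5 and 84.0 FPKM in 5xFAD and at 65.2, 42.6 and 79.4 FPKM in 5xFAD+L. In these 2 members every 5xFAD sample lay above every WT sample, which 5.01% of tested genes showed, and for Atp5j every 5xFAD+L sample did too. The log2 fold change of 5xFAD over WT was 0.58 with an interval from -0.63 to 1.80 for Atp5j and 1.26 with an interval from -2.92 to 5.43 for Atp5g3. Atp5a1 lay furthest down after light, at -0.89 with an interval from -2.12 to 0.34, its samples being at 270.0, 269 and 123 FPKM untreated and at 127, 138 and 74.3 FPKM after light.

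WT replicates 2 and 4 were then left out for their low Ccl21a, Lyve1 and Pdpn, a choice made after seeing the data. Without them 0 members were called in the 3 LEC comparisons. For 5xFAD over WT the members ran from -0.84 for Atp5d and -0.81 for Atp5b to 0.67 for Atp5j and 1.73 for Atp5g3, where Atp5b had been at -0.29 with all samples. Atp5c1 was at -0.04, where it had been at 0.40, and Atp5g1, Atp5o, Atp5pb, Atp5a1 and Atp5j2 were at -0.33, -0.28, 0.23, 0.24 and 0.28. Every 5xFAD sample lay above both WT samples for Atp5g3, Atp5j and Atp5pb, as for 14.8% of 7607 tested genes, and below both for Atp5g1, as for 6.55%.

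For 5xFAD+L over the same WT samples, Atp5b was at -0.92, where it had been at -0.40, Atp5a1 at -0.64, Atp5g1 at -0.53, Atp5o at -0.48 and Atp5d at -0.23, where it had been at 0.03. Atp5pb, Atp5c1, Atp5j2, Atp5j and Atp5g3 were at 0.47, 0.64, 0.65, 0.81 and 1.41. Every 5xFAD+L sample lay above both WT samples for Atp5c1 and Atp5j, as for 10.6% of tested genes, and below both for Atp5a1, Atp5b and Atp5g1, as for 8.19%. The members' medians against WT were 0.10 and 0.12 beside 0.18 and 0.20 over all tested genes. The leukocyte marker Ptprc, which encodes the CD45 that the sort gated out, was at 0 in all 10 LEC samples. Summed leukocyte and macrophage markers reached 14.8 FPKM in WT, 14.99 FPKM in 5xFAD and 2.47 FPKM in 5xFAD+L LECs. Summed fibroblast markers reached 232, 282 and 612 FPKM in these groups, and summed mural cell markers 455, 611 and 62.9 FPKM. The part of other cell types in the members' LEC values was not tested.

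Beyond the members, the genes whose pattern over samples was most like the members' mean were found by the root mean square (RMS) difference of log2(FPKM + 1) after centring each gene on its own mean. In the 12 hippocampi these included Prdx5 at 0.0378, Atp6v1e1 at 0.0430, Apoo at 0.0456 and U2af1 at 0.0482, closer to the members' mean than any member, the nearest of which was Atp5o at 0.0567 and the furthest Atp5j2 at 0.240. In the 10 meninges they were Hcfc1r1 at 0.0950, Ndufb6, a complex I subunit, at 0.0989, Polr2g and Mrpl20 at 0.104 and Arl3 at 0.108, with the members between 0.142 for Atp5o and 0.419 for Atp5d. The members' mean itself moved over a range from -0.19 to 0.11 in the hippocampi and from -0.66 to 0.27 in the meninges. The named genes were picked as the closest among 12981 tested genes in the hippocampi and 14318 in the meninges. That they lay closer than the 10 members is partly set by this choice, and no conclusion is drawn from it.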

How the data were processed

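Reads of Smart-seq2 libraries were processed by the authors, who deposited 2 tables, 1 of the tissues and 1 of sorted LECs, with an expected count and an FPKM value per gene and sample. The paper's methods name fastp and RSEM, whereas the submitters' processing notes name Trimmomatic, HISAT2, StringTie, DESeq2 and the mm10 build. Expected counts deposited by the authors were rounded and tested with edgeR 4.0.16 (R 4.3.3; TMM, glmQLFit, glmQLFTest) for genes that reached an FPKM of 1 in 3 or more samples, all groups of a tissue in 1 fit and both tissues in 1 fit for comparisons between them. Benjamini-Hochberg adjustment ran over all tested genes. FPKM values, normalized and deposited by the authors, gave levels, with a pseudocount of 1 on log scales. SEs of log2 fold changes were back-calculated from the fold change and the F statistic of each test. The 95% intervals were built from these SEs, so both are approximate. The intervals cover the spread between mice, and depth (total counts of 6601143 to 24207326) limits low genes most. The statistics were tested on simulated data whose changes were larger than any reported here for a member, so changes of the members' size were not covered. Alternatives were DESeq2 1.42.0, limma 3.58.1 on log2(FPKM + 1), other size factors, no filter, compared groups alone, a 2-fold minimum, a replicate block and each replicate left out. Members, gene lists and markers were chosen with earlier results of these data known. All members and other ATP synthase genes were to be named, and of other lists only counts, medians and extremes. Replicates differed by more than sampling noise in all 42 pairs. Some items are not reported here.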

Additional observations from a re-analysis of the deposited data

Results flagged for a closer look

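Of 50 sets of values tested, each a member in a group of 4 samples, 1 held a sample far from the others, where chance gives about 1 in 20. Atp5o in the WT sorted LECs stood at 393.56 FPKM in replicate 1, and the other 3 samples lay between 215.72 and 230.94 FPKM. The gap to the nearest sample was 0.914 of the whole range, above Dixon's critical value. Its cause was not tested.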

How the results depend on the processing

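No call of a member changed in any alternative except between WT meninges and WT hippocampus. There 7 members were called, 0 with a 2-fold minimum, 6 with the replicate block, which lost Atp5c1 (adjusted p = 0.0608), and 4 to 9 with a replicate left out, the lowest without WT meninges replicate 4 and the highest without 5xFAD meninges replicate 4. Same-numbered samples in different groups of the same tissue did not deviate together. Their correlation was above 0.1 in 0 of 12, 2 of 9 and 0 of 8 pairs in hippocampus, meninges and LECs. The numbers were therefore taken as names, and the block changed no other call. Whether same-numbered hippocampus and meninges samples came from the same mouse was not tested, and the comparisons between tissues treated them as independent. The WT LEC fits without replicates 2 and 4 were chosen after seeing the data.

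Values near 0 changed sign. Atp5g3 in the hippocampus after light, at -0.00, was at 0.00354 with median-of-ratios size factors, 0.00499 without the filter, 0.00370 in DESeq2 and 0.00121 in limma. With a replicate left out, the hippocampal light values ran from -0.058 to 0.064 for Atp5g3, -0.15 to 0.022 for Atp5g1 and -0.0095 to 0.053 for Atp5pb. The meningeal light values ran from -0.52 to 0.075 for Atp5g3, -0.15 to 0.39 for Atp5g1, -0.23 to 0.27 for Atp5j2 and -0.062 to 0.26 for Atp5o. The meningeal genotype values ran from -0.44 to 0.16 for Atp5g3 and -0.40 to 0.096 for Atp5j2, and the differences between tissues from -0.19 to 0.076 for Atp5a1 (genotype) and -0.51 to 0.017 for Atp5d (light). Causes were not tested.

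Counts over all genes depended on the tool and samples. After light, hippocampi gave 59 genes with edgeR, 641 with DESeq2, 104 without the filter, 35 with the 2-fold minimum and 1 with the compared groups alone, and meninges gave 2, 79 with DESeq2 and 0 with the block. For 5xFAD over WT hippocampi the count was 1108, 1721 with DESeq2 and 556 with the 2-fold minimum, and for 5xFAD+L over WT it was 466, 873 with DESeq2, 1075 with the compared groups alone and 306 with the 2-fold minimum. For 5xFAD+L over WT meninges it was 2, 438 with DESeq2 and 16 without the filter. The tissue difference in light response gave 159, 732 with DESeq2, 54 without the filter, 44 with limma and 19 with the block, and that in genotype response 263, 537, 149 with limma and 174 with the block. LECs without the filter gave 15, 9 and 45. In LECs the intervals were wide, and the share of depth in that spread was not tested.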
